A study of Canis lupus familiaris with 13 samples.

Results

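The 10 heart samples of dogs that were diseased or paced were set against the 3 control hearts of the same series, to see which transcripts differed whatever the cause. The 10 were taken by their labels. Those labelled with dilated cardiomyopathy were the 3 Dobermans K, L and R and the 4 Boxers numbered 1 to 4, and the remaining 3 (LV01, LV02, LV04) were mongrels that had been paced. The controls were 3 mongrels (P1, P4 and P9), so that all 13 samples of the series entered. Total RNA of heart tissue was hybridised to an Affymetrix dog array, 1 array for each sample. No allele, drug, age or chamber is named for a sample, and neither the rate nor the length of pacing is given. Each breed group is a diseased breed without healthy dogs of that breed beside it, so breed and disease cannot be told apart in it. The labels do not say how the samples were collected, and the p-values measure the spread between these samples. Each of the 3 groups counted equally in the pooled difference from control, and differences are on the scale of log2(signal + 16). Values after ± are standard errors (SE) of the fit, and signals are listed in the sample order above.

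In dilated cardiomyopathy the ventricles widen and their contraction weakens, and Dobermans and Boxers are breeds known for it. Rapid pacing through an electrode is a way to bring on heart failure in an otherwise normal dog. Failing ventricles are known for a turn away from fatty acid oxidation, for loss and rearrangement of the gap junctions that carry the electrical impulse between muscle cells, for the return of fetal muscle genes such as skeletal actin, and for deposition of matrix by fibroblasts. Tissue RNA mixes all cell types, and in such samples fewer cells of a type and less RNA per cell cannot be told apart.

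The arrays were not alike. The array carries control probe sets at both ends of the GAPDH transcript, and the ratio of the 3' over the 5' signal goes up with RNA degradation. This ratio was 2.10 in Doberman L and 3.62 in Doberman R against 0.967 to 1.09 on the other 11 arrays. The median signal was 142.5 to 146.3 in the controls, 132.2 to 145.7 in the Boxers, 160.3 to 234.4 in the Dobermans and 207.6 to 219.3 in the paced samples. The log2 ratio of 3' over 5' actin signal was -3.17 to -2.34 in the controls and -2.56 to -2.20 in the paced samples, but -1.92 to -0.085 in the Dobermans and -1.97 to -1.56 in the Boxers, all 7 of which lay above all controls. The mean spike-in signal was 1428 to 2438 in the controls, 1565 to 5621 in the Dobermans, 1649.9 to 2059 in the Boxers and 5335 to 9874 in the paced samples. By two-sided exact permutation tests of the 10 samples against the controls over all 286 splits, p was 0.0769 for the actin ratio, 0.213 for the median, 0.304 for the spike-in signal and 0.752 for the GAPDH ratio. Adjusted over these 4 measures by Benjamini-Hochberg, these exact p-values were 0.308, 0.406, 0.406 and 0.752. The part of these measures in the differences between groups was not tested, apart from a fit with the GAPDH ratio as a covariate. The mean correlation with the control arrays over the tested probe sets was 0.733 in L and 0.780 in R, 0.881 to 0.890 in the paced samples, and 0.927 to 0.954 in Doberman K and the Boxers. All 12 cardiomyocyte markers were strong on every array, the lowest value being 3269 for RYR2. The summed signal of the 9 fibroblast markers tested was 17654 to 26564 in the controls, 22026 to 39433 in the Dobermans, 25712 to 37165 in the Boxers and 16949 to 21451 in the paced samples.

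Few transcripts passed in the pooled comparison. Of 14302 probe sets tested in limma, 163 had a Benjamini-Hochberg adjusted p under 0.05 (1.14%), 97 higher (0.678%) and 66 lower (0.461%) than in the controls. Their differences from control were 0.60 to 3.18 in size on the log2 scale, with a median of 1.19. In 157 of the 163 (1.1% of those tested) the Dobermans, the Boxers and the paced samples all lay on the same side of the controls, 92 above and 65 below, whereas 38.1% of all tested probe sets, called or not, did so. The 3 differences share the same controls, so this agreement is not 3 separate observations. The 163 were also called on the mean of these 3 differences, which favours equal signs. The 38.1% is therefore no like comparison. The split into higher and lower calls depended on scaling: 59.5% of the calls were higher as reported, 39.1% after quantile normalization and 13.2% after median centring.

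The size of the shared differences was not shared. The Dobermans had the largest of the 3 differences in 90 of the 163, the paced samples in 66 and the Boxers in 7, and the Boxers had the smallest in 114. Tested alone against the controls, the Dobermans differed in 25.5% of probe sets, the paced samples in 12.2% and the Boxers in 0.042%, which is 6 probe sets. The 3 groups differed among themselves in 6592 probe sets (46.1%) by the moderated F test in limma, and in 132 of the 163. A stricter test asked that each group on its own differ from the controls in the same direction. No probe set passed it in limma (0%), with a smallest adjusted p of 1. At an unadjusted p under 0.05 it was met by 162, 85 higher and 77 lower.

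A count without any model also gave few probe sets, but leaned to lower signals where the calls leaned to higher ones. All 10 diseased or paced samples lay above all 3 controls in 123 probe sets (0.86%) and below them in 287 (2.01%). For a probe set without ties, 1 of the 286 splits of the arrays does so on each side. Of these, 37 higher and 45 lower ones were among the 163. With 1 probe set taken per gene, 5242 genes were tested and 58 passed, 28 higher (0.534%) and 30 lower (0.572%). In 32 of the 58 every one of the 10 samples lay beyond the controls, 14 above and 18 below. The 12 rises and 12 falls with the largest difference common to all 3 groups are described next. Each passed in the Dobermans taken alone, 18 passed in the paced samples and 1, CMTM6, in the Boxers.

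**Figure D1:**
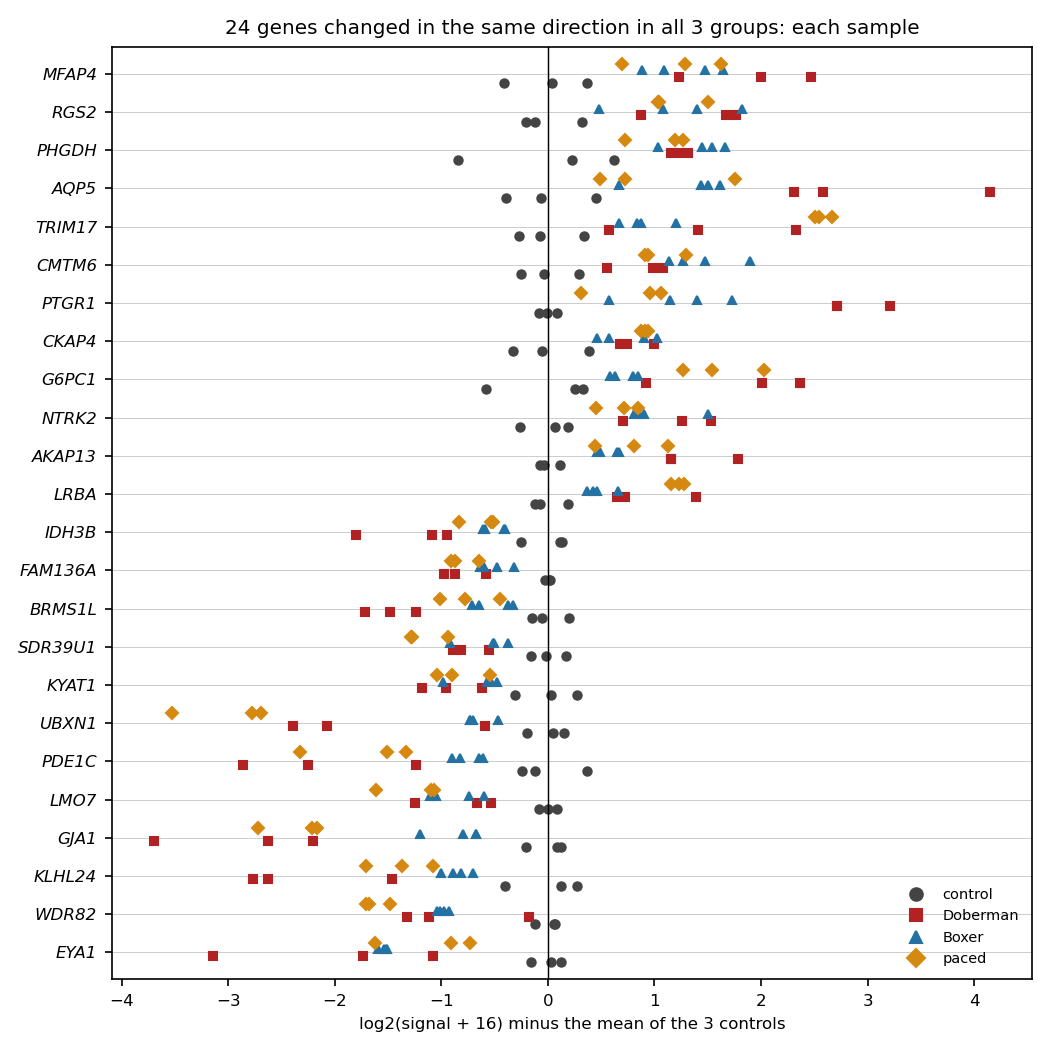
Each point is 1 sample, as log2(signal + 16) minus the mean of the 3 controls, for the 12 genes that rose and the 12 that fell; symbols mark the 4 groups. Every coloured point lies beyond the 3 grey control points of its gene, which the choice of genes required; the Dobermans lie farthest out for AQP5 and PTGR1, the paced samples for TRIM17 and UBXN1.

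GJA1 had the smallest adjusted p among the 32 genes whose 10 samples all lay beyond the controls. It encodes connexin 43, which couples ventricular muscle cells electrically. Its signals were 5117, 6257 and 6441 in the controls, 1272, 439.9 and 946 in the Dobermans, 3693, 2557, 3703 and 3403 in the Boxers and 1259, 1306 and 882 in the paced samples. The Boxers lay between the controls and the other samples, and the lowest Boxer was well above every Doberman and paced heart. GJA1 fell by 4.04-fold in the pooled comparison, a log2 difference of -2.01 ± 0.25 (SE; adjusted p = 0.00667 in limma), made up of -2.84 in the Dobermans, -0.84 in the Boxers and -2.37 in the paced samples. The Doberman difference minus the Boxer difference was -2.01, with a 95% interval of -2.63 to -1.38. Between Dobermans and paced samples it was -0.47, with an interval of -1.14 to 0.20 that includes 0. Of the 12 intercalated disc genes tested, GJA1 was the only one to pass, against 0.572% of all genes lower. The next smallest p-values were those of CDH2, the cadherin of the disc, ITGB1, an integrin, and LIMS1, an integrin adaptor. Their differences were -0.59 ± 0.25, -1.02 ± 0.48 and -0.49 ± 0.24, none of them passing. CDH2 was at -1.55 in the Dobermans, -0.50 in the Boxers and 0.27 in the paced samples. In that order ITGB1 was at -1.79, -0.20 and -1.08, and LIMS1 at -1.34, 0.40 and -0.52.

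LMO7, an actin-associated protein found at cell junctions and the nuclear envelope, was at -0.82, -0.88 and -1.26 in the Dobermans, Boxers and paced samples. Its signals were 1357, 1278 and 1445 in the controls, 935, 848 and 562 in the Dobermans, 805, 889, 648 and 623 in the Boxers and 639.5, 434 and 626 in the paced samples. The highest of the 10, Doberman K, lay well below the lowest control. The log2 difference was -0.98 ± 0.19 (SE; adjusted p = 0.0369 in limma), and the 95% intervals of differences between groups reached 0.94. Its other tested probe set differed by 0.35 and did not pass.

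PDE1C encodes a calmodulin-dependent phosphodiesterase that breaks down cyclic nucleotides in heart muscle. Both of its tested probe sets fell, the brighter by 1.53 ± 0.28 (adjusted p = 0.0359 in limma) and the other by 1.23 ± 0.25 (0.0425) on the log2 scale, each in 10 of 10 samples. Signals of the brighter were 3164, 4832 and 3452 in the controls, 1578, 776 and 501 in the Dobermans, 2115, 2455, 2004 and 2389 in the Boxers and 738, 1486 and 1310.4 in the paced samples. The Boxers were nearest to the controls, and Doberman R was lowest. PAM, the enzyme that amidates peptide hormones and is abundant in atrial muscle, fell by 1.72-fold, with signals of 9032, 7928 and 7000.1 in the controls, 5103, 5185 and 4256 in the Dobermans, 6123, 6334, 5707 and 5941 in the Boxers and 3159, 3447 and 3600.0 in the paced samples. The paced samples had the lowest PAM signals of all, below the lowest Doberman. Its log2 difference was -0.78 ± 0.13 (SE; adjusted p = 0.0240 in limma), and both other tested probe sets of PAM were lower without passing. The summed signal of the 8 atrial markers was 20753 to 23103 in the controls, 19453 to 24895 in the Dobermans, 18992 to 30618 in the Boxers and 16759.7 to 22579 in the paced samples.

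**Figure D2:**
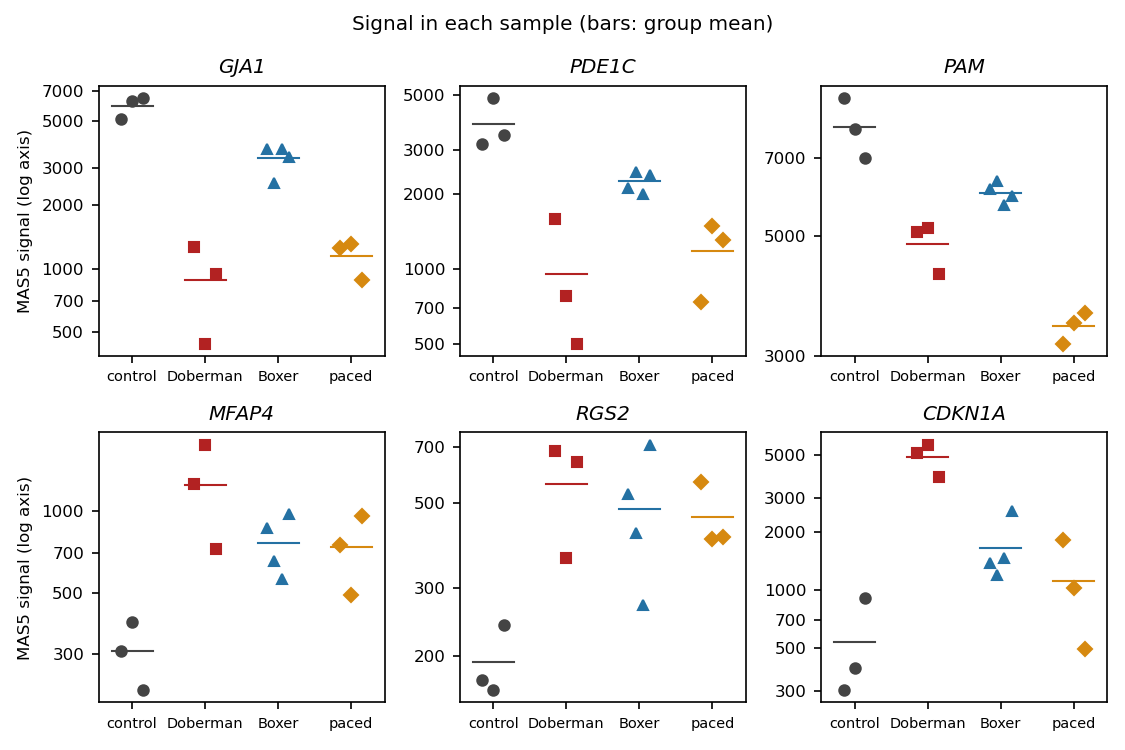
MAS5 signal in each of the 13 samples on a log axis, by group, with bars at group means, for 3 genes that fell (GJA1, PDE1C, PAM) and 3 that rose (MFAP4, RGS2, CDKN1A). CDKN1A is the one of the 6 whose groups overlap: paced sample LV04 at 494 lies below control P9 at 916.

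Among signalling genes, RGS2 rose by close amounts in every group. RGS2 shortens signals of Gq-coupled receptors, the class through which angiotensin and endothelin act. Its signals were 173, 163 and 241 in the controls, 683, 361 and 641 in the Dobermans, 529, 419, 272 and 710.4 in the Boxers and 567, 405 and 409 in the paced samples. The lowest of the 10, Boxer 3, lay just above the highest control. RGS2 was 2.42-fold higher, with a log2 difference of 1.28 ± 0.27 (SE; adjusted p = 0.0448 in limma) and group differences of 1.44, 1.20 and 1.19 in the Dobermans, Boxers and paced samples. The 95% intervals of differences between groups reached 0.95.

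AKAP13, which anchors protein kinase A and activates the small GTPase RhoA, rose by 0.91 ± 0.17 (SE; adjusted p = 0.0369 in limma). Its signals were 1220.2, 1255 and 1393 in the controls, 2882, 4487 and 2887 in the Dobermans, 2055, 1819, 1776 and 2033 in the Boxers and 2836, 2268 and 1754 in the paced samples. Doberman L was highest, and of 3 other probe sets 2 were higher and 1 lower, none of them passing. NTRK2, the receptor of brain-derived neurotrophic factor, rose by 0.95 ± 0.21, with signals of 159 to 223 in the controls and 270.0 to 588 in the 10 samples. RRAS, a small GTPase of vessel walls, rose by 0.77 ± 0.14, with a Doberman difference of 1.34 against 0.37 in the Boxers.

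CMTM6 was the only one of the 24 genes to pass in the Boxers taken alone (adjusted p = 0.0424 in limma, a difference of 1.44 with 4 of 4 Boxers higher). CMTM6 is a membrane protein that protects PD-L1 from breakdown. Its signals were 244, 287 and 365 in the controls, 442, 639.8 and 600.1 in the Dobermans, 846, 666, 1145 and 734 in the Boxers and 571, 579 and 748 in the paced samples. Boxer 3 was highest and Doberman K lowest of the 10, and K still lay above all controls. The log2 difference was 1.12 ± 0.19 (SE; adjusted p = 0.0277 in limma). AQP5, a water channel of secretory tissue, rose by 1.77 ± 0.39, with signals of 23.8 to 55.4 in the controls and 57.2 to 909 in the 10 samples. In the controls AQP5 was dimmer than 108, the mean signal needed to be tested, and the constant added before the log therefore bears on the size of its rise.

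The matrix gene MFAP4 and the serine synthesis gene PHGDH rose in all groups without a difference among them by the F test. MFAP4 is a glycoprotein bound to elastic fibres. Its signals were 307, 392 and 222 in the controls, 1248, 1736 and 727 in the Dobermans, 861, 656, 564 and 972 in the Boxers and 752, 495 and 958 in the paced samples. The lowest of the 10, paced sample LV02, lay above the highest control. The log2 difference was 1.46 ± 0.27 (SE; adjusted p = 0.0359 in limma), a rise of 2.75-fold. PHGDH, the first enzyme of serine synthesis, had signals of 227, 169 and 71.9 in the controls, 355, 336 and 376 in the Dobermans, 443, 485, 308 and 416 in the Boxers and 347, 364 and 245 in the paced samples. Doberman and paced levels overlapped, and the Boxers included the highest. PHGDH rose by 1.24 ± 0.26. Its other probe set, at 0.24 in the pooled comparison, did not pass and did not share a direction. It was at 1.85 in the Dobermans, 0.29 in the Boxers and -1.44 in the paced samples.

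CKAP4 encodes a protein that links the endoplasmic reticulum to microtubules. Its signals were 369, 618 and 449 in the controls, 760.3, 949 and 793 in the Dobermans, 703, 889.7, 652 and 969.5 in the Boxers and 893, 869 and 912 in the paced samples. The rise was 0.82 ± 0.18 (SE; adjusted p = 0.0459 in limma), and the 95% intervals of differences between the 3 disease groups reached 0.60, the smallest such bound among the 10 genes named for a shared rise or fall that did not pass the F test.

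PTGR1, a reductase that inactivates leukotrienes and prostaglandins, rose in each group but unevenly. Its signals were 374, 396 and 423 in the controls, 2693, 2697 and 3814 in the Dobermans, 1073, 601, 898 and 1349 in the Boxers and 784, 845 and 497 in the paced samples. Every Doberman lay far above the highest Boxer, and paced sample LV04 was nearest to the controls. The pooled difference was 1.62 ± 0.23 (SE; adjusted p = 0.00937 in limma), with 2.88 in the Dobermans, 1.21 in the Boxers and 0.78 in the paced samples. GSS, the second enzyme of glutathione synthesis, rose by 0.96 ± 0.19, with 0.37 in the Boxers and 1.28 and 1.25 in the Dobermans and paced samples. Its other probe set differed by -0.17.

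TRIM17, a ubiquitin ligase, was highest after pacing. Its signals were 40.9, 33.7 and 59.8 in the controls, 73.0, 143 and 286 in the Dobermans, 121, 90.7, 78.9 and 93.9 in the Boxers and 324, 364 and 332 in the paced samples. The 3 paced samples lay above every Doberman, and the Boxers and Doberman K lay at 73.0 to 121. The pooled difference was 1.63 ± 0.30 (SE; adjusted p = 0.0359 in limma). G6PC1, the catalytic subunit of glucose-6-phosphatase, rose by 1.36 ± 0.30, with signals of 37.7 to 84.6 in the controls and 104 to 398 in the 10 samples. Its other probe set did not pass, at 1.22 in the Dobermans, -0.03 in the Boxers and -0.48 in the paced samples. LRBA, a protein of vesicle traffic, rose by 0.87 ± 0.17, with signals of 270.4 to 339.7 in the controls and 385 to 799 in the 10 samples. TRIM17 and G6PC1 also had control signals under the filter level.

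KLHL24 gives a cullin ligase its substrates. Its signals were 1608, 1786 and 1109 in the controls, 524, 225 and 203 in the Dobermans, 828, 899.5, 785 and 728 in the Boxers and 688, 441 and 561 in the paced samples. The fall was -1.51 ± 0.25 (SE; adjusted p = 0.0240 in limma), and Dobermans L and R were lowest. UBXN1, an adaptor of the p97 ATPase, had signals of 1203, 1121 and 943 in the controls, 713, 193 and 246 in the Dobermans, 660.3, 780.1, 647 and 647 in the Boxers and 144, 154 and 79.5 in the paced samples. It fell by 1.78 ± 0.30, most in the paced samples (-3.00) and least in the Boxers (-0.66). Its 2 other tested probe sets did not follow: 1 differed by 1.05 and the other by -0.20, neither passing.

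WDR82, a subunit of histone methyltransferase complexes, had signals of 1716, 1942 and 1955 in the controls, 1651, 739 and 853 in the Dobermans, 977, 915, 897 and 945 in the Boxers and 562, 573 and 659.6 in the paced samples. Doberman K at 1651 lay close to the lowest control at 1716, and the other 9 samples lay at 562 to 977. The difference was -1.16 ± 0.20 (SE; adjusted p = 0.0255 in limma). BRMS1L, of a histone deacetylase complex, fell by 0.91 ± 0.19, with signals of 351 to 453 in the controls and 108 to 309 in the 10 samples. EYA1, a phosphatase and transcriptional coactivator of muscle development, fell by 1.54 ± 0.33, and the 4 Boxers were closely alike at 163 to 174 against 469 to 573 in the controls.

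IDH3B, a subunit of the citric acid cycle enzyme isocitrate dehydrogenase, had signals of 14119, 13916 and 10783 in the controls, 6663, 3678 and 6057 in the Dobermans, 8421, 9708, 8531 and 9685 in the Boxers and 7212, 8877 and 8963 in the paced samples. Doberman L was lowest, and the Boxers and paced samples overlapped. The fall was -0.80 ± 0.18 (SE; adjusted p = 0.0486 in limma), with the other probe set at 0.041. FAM136A, a mitochondrial protein, had signals of 1234, 1277 and 1269 in the controls, 681, 839 and 632 in the Dobermans, 805, 1007, 828 and 901 in the Boxers and 683, 798 and 663 in the paced samples. The controls were closely alike, and Boxer 2 was the highest of the 10. It fell by 0.71 ± 0.14 (adjusted p = 0.0389 in limma). KYAT1, a transaminase of kynurenine, fell by 0.80 ± 0.18, with its other probe set lower, and SDR39U1 by 0.83 ± 0.15. MLYCD, which removes the malonyl-CoA that blocks fatty acid entry into mitochondria, fell by 0.65 ± 0.14, and PAM16, of the mitochondrial import motor, by 0.68 ± 0.15. For PAM16 the paced difference was -0.23, and its other probe sets were at -0.48 and 0.20. WDR47 and CDK5RAP3 fell by 0.73 ± 0.12 and 0.64 ± 0.14, and the other probe set of WDR47 was at 0.22.

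**Figure D3:**
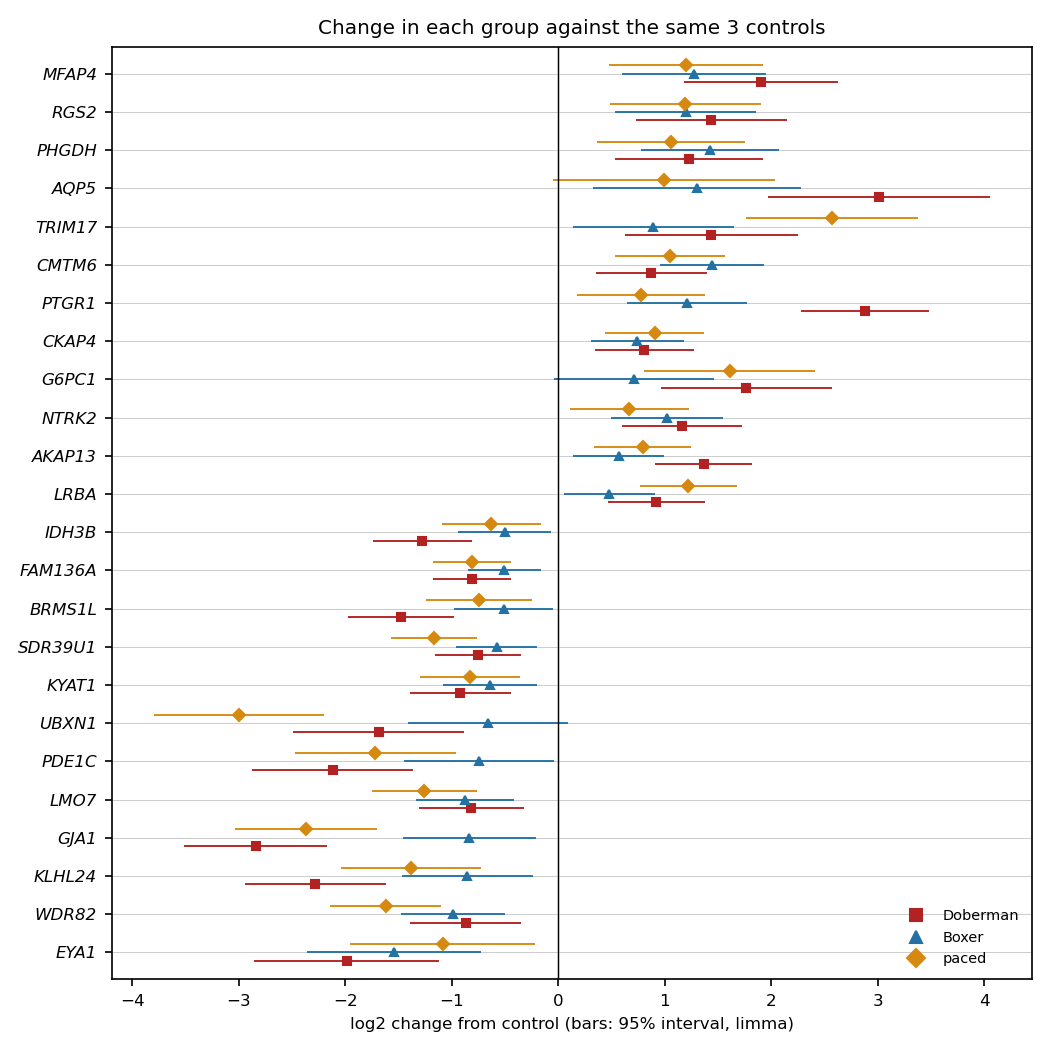
Log2 difference of each group from the same 3 controls for the 24 genes, with 95% intervals from limma. All differences point the way of the gene, but for AQP5, G6PC1 and UBXN1 the interval of 1 group reaches 0; the Boxers lie nearest to 0 in 14 of the 24.

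The sizes of the differences were also compared across the causes for the 24 genes. The F test among the 3 groups passed for 14, beside 46.1% of all tested probe sets. GJA1 (adjusted p = 0.00106) and PTGR1 (0.000755) had the smallest values of this F test in limma. It did not pass for MFAP4, RGS2, PHGDH, CMTM6, CKAP4, NTRK2, EYA1, LMO7, KYAT1 and FAM136A. This does not show that their changes were equal: the intervals allow differences between groups from 0.60 for CKAP4 to 1.77 for EYA1. The smallest of a gene's 3 differences was that of the Boxers in 14, of the paced samples in 7 and of the Dobermans in 3.

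A further 26 genes passed although 1 or more of the 10 samples overlapped the controls. IGFBP2, a binding protein of insulin-like growth factors, had signals of 222, 28.2 and 44.4 in the controls, 733, 929 and 369 in the Dobermans, 591, 433, 436 and 623 in the Boxers and 587, 158 and 148 in the paced samples. Control P1 stood above paced samples LV02 and LV04, and the Boxers and Dobermans lay above all controls. The difference was 2.38 ± 0.48 (SE; adjusted p = 0.0405 in limma). CDKN1A, the p53 target that halts cell division, had signals of 304, 398 and 916 in the controls, 5143, 5671 and 3840.3 in the Dobermans, 1378, 1193, 1472 and 2569 in the Boxers and 1811, 1026 and 494 in the paced samples. It rose by 1.98 ± 0.37 (adjusted p = 0.0359 in limma), led by the Dobermans at 3.28.

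CLU, a secreted chaperone, rose by 1.50 ± 0.30, but the paced difference was 0.22 against 2.75 in the Dobermans and 1.54 in the Boxers. Paced sample LV04 at 951 lay below the 3 controls. LOXL2, which cross-links collagen, rose by 1.32 ± 0.26, and FCGR1A, an Fc receptor of macrophages, by 1.82 ± 0.36. The fuel gene ACSL1, which activates long-chain fatty acids, fell by 0.74 ± 0.15, with -1.55 in the Dobermans and -0.21 in the Boxers. AKR1B1, aldose reductase, is named here after its values were seen, because it had the second smallest adjusted p of all probe sets. It fell by 1.33 on the log2 scale (SE 0.16, adjusted p = 0.00512 in limma), with -1.80 in the Dobermans, -1.86 in the paced samples and -0.34 in the Boxers. The other rises with a symbol were FAM161A, FAM184B, PEA15, BTBD6, DYNC1I1, ABCB4, IFNG and TRMT1, and the other falls NUP133, BTBD3, VPS72, PSAP, CD38, ZADH2, UQCC1 and MRPL48. Of the 58 genes, 4 are known only by a locus number and are not named.

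Genes of mitochondrial fuel use lay lower together, though few passed singly. In the list that covers pyruvate entry and the citric acid cycle, 24 genes were tested, of which 0 rose and 1, IDH3B, fell, against 0.572% of all genes; at an unadjusted p under 0.05 in limma, 0 were higher and 14 lower, against 9.75% and 10.7% of all genes. The median difference was -0.51, beside -0.01 over all genes, and 17 of the 24 were lower in each of the 3 groups, against 20.8% of all genes. The list's median lay at -0.03 to 0.06 in the controls, -1.79 to -0.60 in the Dobermans, -0.25 to -0.11 in the Boxers and -0.54 to -0.29 in the paced samples. The 10 samples lay below the 3 controls, with the Boxers nearest. SDHB, a subunit of succinate dehydrogenase, had signals of 13009, 14995 and 11817 in the controls, 8719.9, 5071 and 6241 in the Dobermans, 10368, 10585, 11152 and 11941 in the Boxers and 7977, 9005 and 9229 in the paced samples. Boxer 4 lay just above the lowest control, and Doberman L was lowest. The difference of -0.63 ± 0.16 did not pass (adjusted p = 0.0720 in limma). Neither did those of PDP1, the phosphatase that activates pyruvate dehydrogenase, at -1.39 ± 0.40, and PDHB, a subunit of that enzyme, at -0.94 ± 0.28.

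Genes of fatty acid uptake and oxidation also lay lower. Of 25 tested, 0 rose and 2 fell, ACSL1 and MLYCD, against 0.534% and 0.572% of all genes. At an unadjusted p under 0.05 in limma 1 was higher and 10 lower, against 9.75% and 10.7% of all genes, and the median difference was -0.56. In 16 all 3 groups were lower, against 20.8% of all genes. List medians were -0.12 to 0.09 in the controls, -1.10 to -0.68 in the Dobermans, -0.31 to -0.19 in the Boxers and -0.48 to -0.17 in the paced samples. The highest of the 10, a paced sample, lay just below the lowest control. ETFDH, which passes electrons from fatty acid oxidation to the respiratory chain, differed by -0.87 ± 0.20 (adjusted p = 0.0503 in limma), short of the threshold. CD36, the fatty acid transporter, differed by -1.52 ± 0.75 and PDK4, a kinase that shuts pyruvate dehydrogenase, by -1.01 ± 0.48. CD36 signals were 4225, 4295 and 3776 in the controls, 3551, 45.6 and 679 in the Dobermans, 3236, 2303, 2661 and 2773 in the Boxers and 2048, 1774 and 2245 in the paced samples. Every one of the 10 lay below the controls, but the Dobermans ran from 45.6 to 3551, and the comparison did not pass (adjusted p = 0.251 in limma).

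In oxidative phosphorylation 39 genes were tested and 0 passed in either direction in limma, with 0 higher and 16 lower at an unadjusted p under 0.05, against 9.75% and 10.7% of all genes. The median difference was -0.37, and 26 genes were lower in all 3 groups, against 20.8% of all genes. The list's medians overlapped: control P9 at -0.20 lay below Boxers as high as -0.12. CYC1, cytochrome c1 of complex III, differed by -0.69 ± 0.17, and NDUFS8, of complex I, by -0.57 ± 0.14, neither passing. The median of the 58 cytosolic ribosome genes was -0.07, that of 25 glycolysis and glycogen genes -0.06, and 0 passed in either list in limma, with 2 and 8 at an unadjusted p under 0.05, or 3.45% and 32.0% against 20.5% of all genes. Both medians turned positive, to 0.06 and 0.03, after quantile normalization.

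Doberman L, with a raised GAPDH ratio, was the lowest sample in all 3 fuel lists, at -1.79, -1.10 and -0.87, while R, with the highest ratio, lay at -1.08, -0.90 and -0.30. Their part was examined by leaving them out. Without L and R, which leaves K as the only Doberman, the median was -0.31 for the citric acid cycle. It was -0.40 for fatty acid genes and -0.33 for oxidative phosphorylation. With the Doberman group left out altogether the medians were -0.27, -0.33 and -0.27. Median centring moved the median of all genes to -0.30 and those of the 3 lists to -0.81, -0.85 and -0.66. The summed signal of the 12 cardiomyocyte markers was 247639 to 360502 in the controls, 266157 to 531257 in the Dobermans, 252648 to 283582 in the Boxers and 218316 to 245234 in the paced samples, and its part in the fuel lists was not tested.

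**Figure D4:**
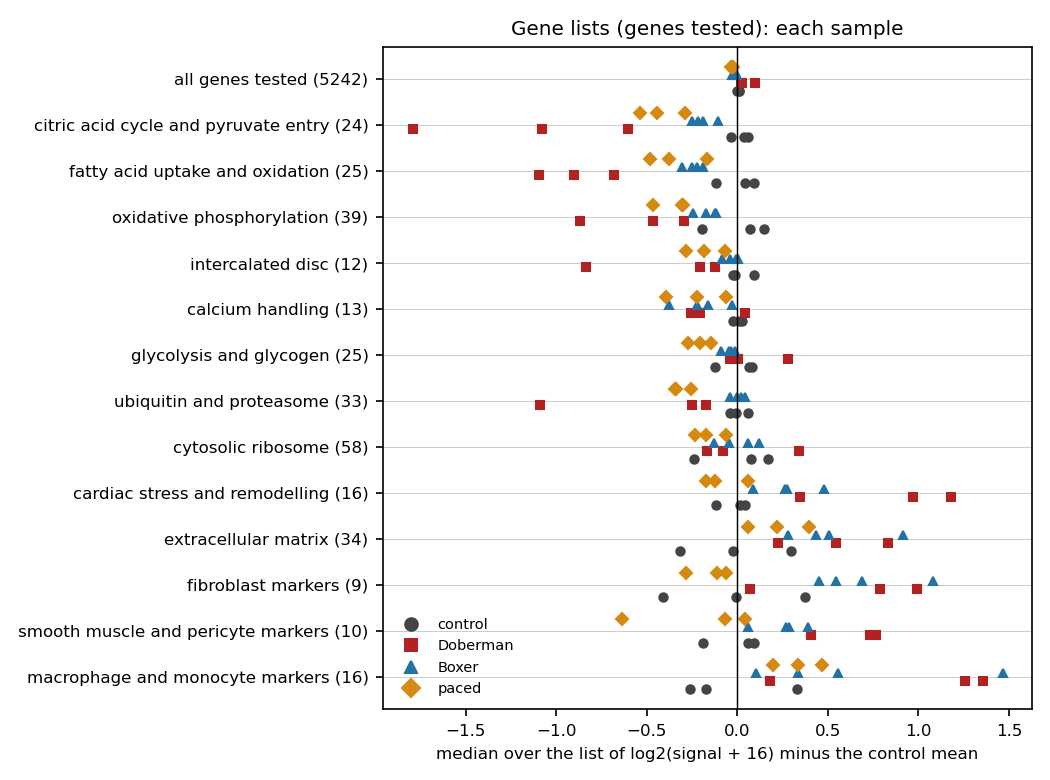
Median over each gene list of log2(signal + 16) minus the control mean, 1 point for each sample, with the number of genes tested after the list's name. The 10 diseased or paced samples lie left of the controls for the citric acid cycle and fatty acid lists; for the matrix and macrophage lists each group overlaps the controls, and for the fibroblast list the 4 Boxers lie above all controls while Dobermans and paced samples overlap them.

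The matrix and macrophage lists had positive medians as the arrays were deposited. Of 34 extracellular matrix genes 2 rose, MFAP4 and LOXL2 (0.534% of all genes did), and 0 fell (11 higher and 0 lower at an unadjusted p under 0.05 in limma, against 9.75% and 10.7% of all genes). The median was 0.29, and -0.01 with median centring, which also lowered the median of all genes, as given above with the fuel lists. In all 3 groups 15 were higher and 0 lower, against 18.2% and 20.8% of all genes. CILP, a matrix protein of injured heart, had signals of 191, 193 and 255 in the controls, 878, 1604 and 365 in the Dobermans, 1072, 521, 1025 and 462 in the Boxers and 565, 274 and 467 in the paced samples. All 10 samples lay above the controls, but the difference of 1.49 ± 0.38 did not pass (adjusted p = 0.0721 in limma). SPP1, osteopontin, differed by 2.38 ± 0.63 with Boxer 4 at 5681 and the controls from 58.7 to 513, and COL1A1 by 0.84 ± 0.50. The collagen COL3A1 differed by -0.16 ± 0.58, lower in the Dobermans (-1.03) and higher in the Boxers (0.50). Of the 9 fibroblast markers tested 1, MFAP4, rose. The list's median was 0.66 in the Dobermans, 0.66 in the Boxers and -0.12 in the paced samples. The pooled value of 0.26 became -0.04 with median centring, again beside a lower median of all genes. The summed signal of 10 smooth muscle markers was 32868 to 44362 in the controls, 57949.9 to 90411 in the Dobermans, 41037 to 50567 in the Boxers and 38506 to 42739 in the paced samples. S100A4, also expressed by leukocytes, differed by 1.52, 2.02 and -0.12 in that order and did not pass.

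Of 16 macrophage and monocyte markers 1, FCGR1A, rose and 0 fell, against 0.534% and 0.572% of all genes. At an unadjusted p under 0.05 in limma 5 were higher and 0 lower, against 9.75% and 10.7%. The median was 0.59, and 11 were higher in all 3 groups, against 18.2% of all genes. The summed signal of the list was 4036 to 6729.8 in the controls, 5107 to 14205 in the Dobermans, 6009 to 14851 in the Boxers and 5619 to 6449.6 in the paced samples. FCGR1A had signals of 28.1, 35.5 and 118 in the controls, 335, 189 and 323 in the Dobermans, 107, 138, 128 and 320.1 in the Boxers and 268, 239 and 235 in the paced samples, so that control P9 lay above Boxer 1 alone. CCL2, a chemokine that draws monocytes, differed by 1.16 ± 0.33 and did not pass (adjusted p = 0.0968 in limma). The share of macrophages or fibroblasts in the tissue was not measured, and its part in these differences was not tested.

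In the list of cardiac stress and remodelling genes 3 of 16 rose, CDKN1A, CLU and IGFBP2, and 0 fell, against 0.534% and 0.572% of all genes. At an unadjusted p under 0.05 in limma 7 were higher and 1 lower, against 9.75% and 10.7%. The list was written with earlier results of these samples known, so this count is no independent evidence. Its median was 0.77 in the Dobermans, 0.21 in the Boxers and -0.03 in the paced samples. The pooled 0.28 became -0.01 with median centring, which lowered the median of all genes as well.

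The named genes of contraction did not pass. MYH7, the ventricular myosin heavy chain, differed by -0.08 ± 0.21, and TTN, titin, by 0.03 ± 0.20, and at these probe sets Dobermans L and R were the highest of all samples while K lay among the controls. Of the 5 other MYH7 probe sets tested 4 were lower and 1 higher, none passing, and 2 bright ones were at -3.06 and -2.44 in the Dobermans, with pooled differences of -1.60 and -1.25. The direction of MYH7 in the Dobermans depended on the probe set. ATP2A2, the calcium pump of the sarcoplasmic reticulum, differed by -0.24 ± 0.19, and of its 9 other probe sets, none passing, 6 were lower and 3 higher, the brightest of them at -1.12. RYR2, the calcium release channel, had signals of 8946, 8123 and 7556 in the controls, 4793, 3504 and 3269 in the Dobermans, 6305, 8148, 7646 and 6202 in the Boxers and 3960.3, 5032 and 6560.0 in the paced samples. The Boxers overlapped the controls, and the difference of -0.67 ± 0.17 did not pass (adjusted p = 0.0742 in limma). Of 15 thick and thin filament genes and 13 calcium handling genes 0 passed in either direction in limma, with 3 and 6 at an unadjusted p under 0.05, or 20% and 46.2% against 20.5% of all genes.

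Among signalling genes 18 of the adrenergic, renin-angiotensin and endothelin list were tested and 0 passed in limma, with 0 higher and 1 lower at an unadjusted p under 0.05 (5.56%, against 20.5% of all genes). That gene was ADCY6, a main adenylyl cyclase of heart muscle, with signals of 1842, 1995 and 1181 in the controls, 1112, 429 and 395 in the Dobermans, 746, 1055, 683 and 615 in the Boxers and 554, 910.0 and 584 in the paced samples. All 10 lay below the lowest control, and Dobermans L and R were lowest. Its difference of -1.28 ± 0.29 lay just short of the threshold (adjusted p = 0.0517 in limma). Of 33 genes of ubiquitin and the proteasome 0 passed, with 1 higher and 7 lower at an unadjusted p under 0.05 in limma (24.2%, against 20.5%) and a median of -0.22. ASB12, an adaptor of ubiquitin ligases, differed by -1.51 ± 0.36, and PSMC5, an ATPase of the proteasome cap, by -0.80 ± 0.22. In the heat shock and protein folding list (25 tested, 0 passed in limma, 3 higher and 2 lower at an unadjusted p under 0.05, 20% against 20.5%) members lay on both sides, with HSPA4 at 0.75 ± 0.23 and HSPA9, the mitochondrial member, at -0.79 ± 0.26. The 8 interferon response genes had a median of 0.56, and 0 passed in limma (2 higher and 0 lower at an unadjusted p under 0.05, 25.0% against 20.5%), IRF9 being at 0.39 ± 0.13. IGFBP2 was also the only one of 16 genes of TGF-beta and growth factor signalling to pass, CDKN1A of 11 in the p53 and cell cycle list, PTGR1 of 22 in the oxidant defence list, and PAM of 8 atrial markers. In the remaining 10 lists, those of the Z-disc, membrane channels, autophagy and the endothelial, smooth muscle, lymphocyte, adipocyte, nerve, blood and skeletal muscle markers, 0 of 87 genes passed in limma. At an unadjusted p under 0.05, 12 were higher and 8 lower, 23.0% in all, close to the 20.5% of all genes.

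For a few genes the answer depended on the probe set. The smallest adjusted p of the whole comparison belonged to a probe set of ACTA1, skeletal actin, that fell by 2.82 ± 0.26 (adjusted p = 0.00047 in limma). Its signals were 3409.9, 2679.7 and 2558 in the controls, 299, 552 and 230.1 in the Dobermans, 167, 157, 183 and 88.6 in the Boxers and 1382, 910.1 and 1334 in the paced samples. Boxers were lowest and paced samples nearest to the controls. A second ACTA1 probe set rose by 1.36 ± 0.26, with signals of 555, 520.2 and 1012 in the controls, 391, 964 and 1016 in the Dobermans, 1242, 871, 1063 and 1017 in the Boxers and 6501, 6465 and 7277 in the paced samples. There the rise rested on the paced samples, while Doberman K lay below the controls. The brightest ACTA1 probe set had a difference of 1.16 ± 0.30 and did not pass. The 4 skeletal muscle markers tested, ACTA1 among them, summed to 1991 to 2778 in the controls, 1326 to 6786 in the Dobermans, 2628 to 2819 in the Boxers and 7249 to 7761 in the paced samples. No direction can be given for ACTA1 as a gene.

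Other genes had a second probe set that fell below all controls in all 10 samples. A weaker RYR2 probe set fell by 1.78 ± 0.39, with signals of 1942, 2134 and 1652 in the controls, 658, 88.7 and 255 in the Dobermans, 866, 903, 699 and 743 in the Boxers and 531, 1081 and 834 in the paced samples. All 3 other RYR2 probe sets tested were lower too, without passing. For TTN 1 of 17 tested probe sets passed, falling by 0.97 ± 0.20 with 626 to 1122 in the controls and 280.1 to 554 in the 10 samples. For ETFDH 1 of 5 passed, falling by 1.71 ± 0.37, and 1 of the others was at 0.51. For ACSL1 2 of 4 fell, the second by 2.04 ± 0.33, with 2292 to 3447 in the controls and 182 to 1383 in the 10 samples, so that this probe set separated the groups where the brightest did not.

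FECH, which inserts iron into heme, had 2 of 7 probe sets that fell, by 1.04 ± 0.18 and 2.54 ± 0.54. Signals of the first were 1509.9, 1721 and 1737 in the controls, 1161, 709.9 and 607 in the Dobermans, 944, 1073, 830.4 and 1047 in the Boxers and 713, 587 and 661 in the paced samples. Doberman K was the highest of the 10 and still below the controls. Of the other 5 FECH probe sets 4 were lower and 1 was higher, at 0.65, without passing. For USP8, a deubiquitinase of endosomes, 2 of 3 fell, by 1.34 ± 0.20 and 0.99 ± 0.20. Signals of the first were 388, 394 and 314 in the controls, 257, 221 and 221 in the Dobermans, 283, 203, 249.8 and 172 in the Boxers and 31.8, 44.7 and 46.1 in the paced samples. The paced samples lay far below the Dobermans and Boxers, which overlapped each other. A probe set of GAP43, a protein of growing nerve endings, rose by 1.20 ± 0.24, with 66.0 to 114 in the controls and 153 to 364 in the 10 samples. The brighter GAP43 probe set differed by 0.40 ± 0.17 (SE; adjusted p = 0.207 in limma), overlapped the controls and was at -0.03 in the Boxers.

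In 6 of the 163 calls a group went the other way. TPT1, a translationally controlled protein, had 1 probe set at 2.67 in the paced samples, 0.39 in the Boxers and -0.22 in the Dobermans, and its other 7 tested probe sets did not pass. A probe set of KCNJ8, a potassium channel subunit of vessel walls, was at 2.48 in the Dobermans and 1.32 in the paced samples but -0.19 in the Boxers. Its control signals were only 52.3 to 85.2. The brighter KCNJ8 probe set was lower, at -1.55, -1.33 and -0.48 in the same order, and did not pass. A probe set of CES1, a carboxylesterase, was at 1.54, 3.08 and -0.06 in the same order. The other 3 carried a locus number or no symbol. Such probe sets passed on the average over groups and do not mark a shared change.

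How far the calls rested on single samples differed between genes. Leaving out control P4 left 5 calls, P1 13 and P9 50; of the 24 named genes, 0, 1 and 4 still passed. Leaving out a Boxer left 17 to 49 calls, with 2 to 9 of the 24 passing. Leaving out a paced sample left 33 to 36, with 6 to 8 of them passing. After quantile normalization 3 of the 24 passed, PTGR1, WDR82 and GJA1, and after median centring 18. With a whole group left out 23 were tested each time. Of these, 2 passed without the paced group, 17 without the Boxers and 23 without the Dobermans. Without Doberman K there were 3291 calls. Without L and R together the Doberman group was 1 array, K, which adds nothing to the measured spread, so calls are not counted there. AQP5 then fell under the filter, and GJA1 was at -1.80 and PTGR1 at 1.57. This setting is among the 27 alternatives counted below. A fit of the 10 samples as 1 group against the controls gave 0 calls in limma, with 1020 at an unadjusted p under 0.05. GJA1 kept its call in 25 of 27 alternatives, losing it without control P4 and in that fit. PTGR1 kept it in 24, PAM in 22, KLHL24 in 21, WDR82 in 20, CMTM6 in 19 and UBXN1 in 19. NTRK2 and KYAT1 kept it in 8 each and AQP5 in 5 of the 22 in which it was tested. The sign of all 163 calls was the same under every alternative in which the probe set was tested.

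**Figure D5:**
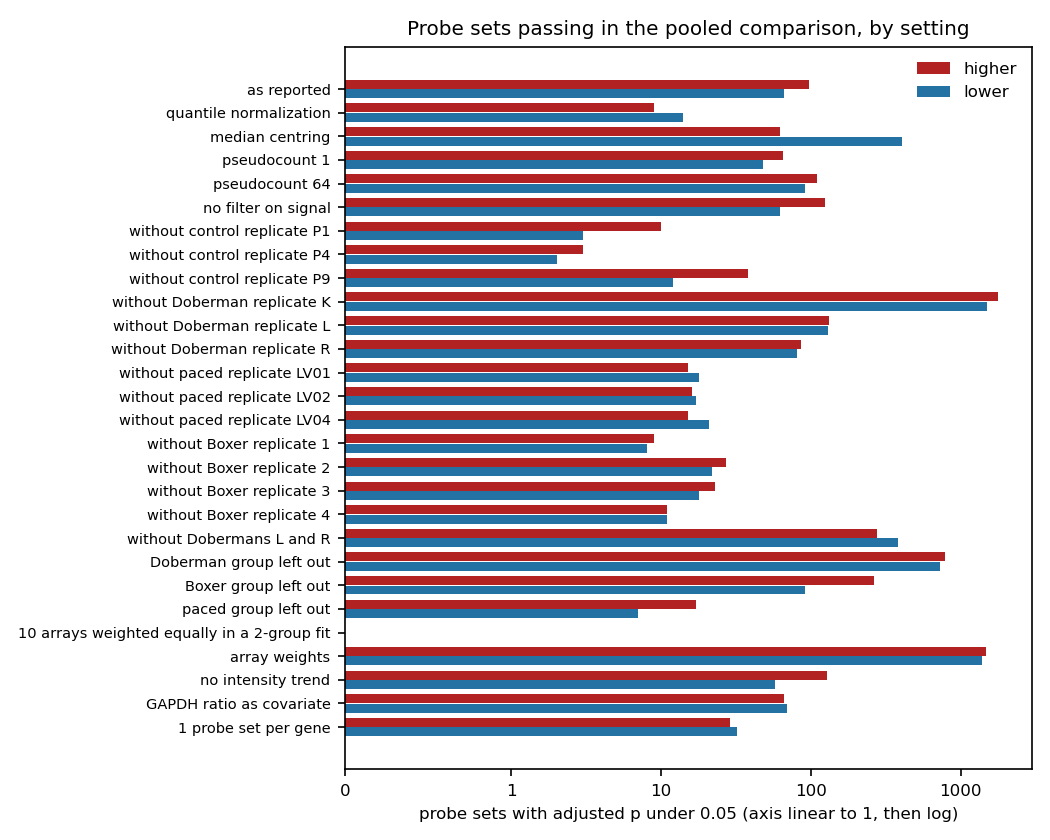
Probe sets with adjusted p under 0.05 in limma in the pooled comparison, higher (red) and lower (blue), under the reported setting and 27 alternatives; the axis is linear to 1 and logarithmic above. Counts run from 0 in the 2-group fit to 3291 without Doberman K. In the setting without Dobermans L and R that group is 1 array, so its count is not read.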

How the data were processed

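Total RNA of 13 dog heart samples was labelled with biotin and hybridised to 1 Affymetrix array each, per the labels' protocols. The deposited values are intensities: MAS5 signals on a linear scale, per the submitters' processing notes, with no version named, and the trimmed mean was about 500 on every array. How the animals were sampled and whether RNA was pooled is not given in the sources used here. Precision is limited by how few arrays there are.

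Of 23913 probe sets in the deposited table, 77 controls were set aside, and 14302 of the other 23836 had a mean log2(signal + 16) above the 40th percentile, 6.95, a signal of 108. A 4-group model with 9 residual degrees of freedom was fitted in limma 3.58.1 (R 4.3.3, trended eBayes). The main contrast was the mean of the 3 groups minus control, with Benjamini-Hochberg adjustment over all probe sets and a threshold of 0.05. The stricter test took the largest of the 3 group p-values where the signs were equal, adjusted in the same way. Adjusted p-values in the text are those of the main contrast unless another test is named. For counts of genes, each of the 5242 genes was taken by its brightest tested probe set. Symbols came from the platform annotation: of the 23836, 10549 had 1 symbol, 138 several and 13149 none.

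Named genes are the 12 rises and 12 falls with the largest shared difference, meaning the smallest in size of the 3 group differences, among genes that passed with all 10 samples beyond the controls. Up to 4 members of each list by smallest p and a few fixed heart genes were added. Genes described beyond that rule, such as those with several called probe sets, were chosen after their values were seen. The 30 gene lists and these rules were chosen with earlier results of these data known. The fit was tested on simulated data, and figures were drawn with matplotlib 3.10.9. Alternatives covered scaling, the added constant, the filter, left-out samples and groups, weighting, the variance model, the GAPDH ratio as a covariate and 1 probe set per gene.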

Additional observations from a re-analysis of the deposited data

Results flagged for a closer look

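For 67 of the genes described with values, the brightest tested probe set was examined. Of these 67, 42 differed among the Dobermans, the Boxers and the paced samples by the moderated F test in limma. That test compared the 3 groups with each other and used the controls only for the spread. It passed in 46.1% of all tested probe sets, and in 2272 of 5242 genes with 1 probe set per gene, so such a difference was common. Adjusted p-values for 14 of the 24 leading genes were AQP5 (0.0105), TRIM17 (0.00806), PTGR1 (0.000755), G6PC1 (0.0414), AKAP13 (0.0170), LRBA (0.0232), WDR82 (0.0384), KLHL24 (0.00684), GJA1 (0.00106), PDE1C (0.0121), UBXN1 (0.00179), SDR39U1 (0.0388), BRMS1L (0.0106) and IDH3B (0.0189). Among other genes that passed in the pooled comparison they were CDKN1A (0.00548), CLU (0.00175), ACSL1 (0.000670), MLYCD (0.0222), LOXL2 (0.0376), PAM (0.00384), PAM16 (0.0121), WDR47 (0.00248), GSS (0.00832), RRAS (0.00248) and AKR1B1 (0.000279). Among genes that did not pass they were MYH7 (0.0274), TTN (0.0301), ACTA1 (0.000685), RYR2 (0.0112), SDHB (0.0157), PDP1 (0.0138), ETFDH (0.00409), NDUFS8 (0.00513), CYC1 (0.0125), CCL2 (0.0301), S100A4 (0.00344), CDH2 (0.00314), LIMS1 (0.00230), PDHB (0.00626), ASB12 (0.000900), PSMC5 (0.0125) and HSPA9 (0.00904). At the probe sets described for MYH7 and TTN the highest samples were Dobermans L and R, the arrays with raised GAPDH ratios, and their part was not tested.

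In the 4 Boxers a sample stood far from the others in 2 genes. The gap to the nearest other sample was 0.862 of the group's range for NTRK2 in Boxer 4 and 0.889 for UBXN1 in Boxer 2, above Dixon's critical value for 4 samples. About 1 in 20 groups shows such a gap by chance, and 67 genes were examined. For both genes all 4 Boxers still lay beyond the controls.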

How the results depend on the processing

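As reported, 163 probe sets passed, 157 of them in the same direction in each group. Quantile normalization gave 23 calls, all 23 in the same direction, and median centring 470, of which 426. Leaving out 1 sample at a time gave 5 to 3291 calls and 5 to 2396 in the same direction. Without Dobermans L and R the counts were 659 and 621, without the Doberman group 1519 and 1392, without the Boxers 356 and 354, and without the paced group 24 and 24. Array weights gave 2869 and 2311, and 1 probe set per gene 61 and 60. Weighting the 10 arrays equally in a 2-group fit in limma gave 0 calls, with 1020 at an unadjusted p under 0.05. The stricter test of all groups gave 0 to 1 when single samples were left out, the 1 arising without Doberman K. It gave 6 without the Doberman group, 1 without the Boxers and 3 without the paced group, where fewer groups had to differ. The difference among the groups passed for 10646 probe sets without a filter, 2272 with 1 probe set per gene and 3361 when the GAPDH ratio was added as a covariate. In the other alternatives run with more than 1 sample in each group, these 4 counts stayed within 1.5 times of the reported ones.

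Another probe set had the opposite sign for AKAP13 (-0.23), LMO7 (0.35), UBXN1 (1.05), IDH3B (0.041), TTN (-0.97), ACTA1 (-2.82), KCNJ8 (1.20), PAM16 (0.20), WDR47 (0.22) and GSS (-0.17), where at least 1 of the pair passed. It also did for ETFDH (0.51) and FECH (0.65), beside probe sets that fell, and, with none passing, for ATP2A2 (0.76, 0.49 and 0.17) and MYH7 (0.012). The cause of these differences was not tested. No paired analysis was possible because the sample names share no replicate numbers across groups. Signals near the filter level of 108 limit the size of the rises of AQP5, TRIM17 and G6PC1. The same holds for other rises with dim controls, such as IGFBP2 and FCGR1A.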
